A study of Mus musculus with 20 samples.

Results

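Toll-like receptors (TLRs) and NOD receptors are the proteins by which a cell recognises molecules of bacteria and viruses, and 10 of their mRNAs were followed in the cecum of mice fed with raw potato starch (RPS). The members are Tlr1, Tlr2, Tlr3, Tlr4, Tlr5, Tlr7, Tlr9, Tlr13, Nod1 and Nod2, and they were found by matching gene identifiers to GENCODE mouse symbols. All 10 were among the 19887 genes of the count table and all 10 were among the 15348 genes with enough counts to be tested. RNA from the cecum of 20 C57BL/6 mice was sequenced, with 5 mice on each diet, to ask how gene expression depends on the amount of RPS in a Western diet. Every mouse, those without RPS included, was placed on the Total Western Diet (TWD) at 3 weeks of age and kept on it for 6 weeks. For the next 3 weeks a group stayed on the TWD alone (0% RPS) and the others had raw potato starch added to it at 2, 5 or 10%. No mouse without the TWD was analysed here, so every comparison is between amounts of RPS within that diet.

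The libraries held 14967798 to 42687283 counted reads, and pairs of mice on the same diet differed beyond counting noise (chi-square per degree of freedom of 13.8 or more in all 40 pairs). The tissue label was checked against markers. The 10 epithelial markers summed to 26500 to 45800 CPM (read counts scaled to the size of the library) in each mouse. They were led by the carbonic anhydrase gene Car1 and the keratins Krt8, Krt19 and Krt20. Of the Paneth cell markers, Defa17 had 0 counts in all mice, and Defa24 and Mmp7 had 5 and 26 in total. Lyz1 of the same list had 44 to 553 counts per mouse. Of the small intestine markers, Alpi had a mean of 76.2 CPM, and Sis and Fabp6 had 0.46 and 0.925. The 4 Y-linked genes examined had at least 420 counts in all 20 mice. Markers of B cells ranged from 4.38 to 382 CPM in sum among the mice, and this spread is given beside the receptors that varied with it. The tissue is a mixture, so that fewer cells of a type and less RNA per cell cannot be told apart in any of these values.

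As background, TLR2 forms pairs with TLR1 or TLR6 at the cell surface and binds bacterial lipopeptides, TLR4 binds lipopolysaccharide and TLR5 binds flagellin. TLR3, TLR7, TLR9 and TLR13 work in endosomes, where they bind double-stranded RNA, single-stranded RNA, unmethylated CpG DNA and bacterial ribosomal RNA. NOD1 and NOD2 lie in the cytosol and bind fragments of peptidoglycan. Through adaptors such as MYD88 and TRIF for the TLRs and the kinase RIPK2 for the NOD receptors, these receptors activate NF-kappaB and interferon regulatory factors. In the gut they are used by epithelial cells, macrophages, dendritic cells and lymphocytes, and each type of cell carries its own set.

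The surface receptor pair differed greatly in level. Levels were compared between genes as CPM per 1000 exon bases, the mean and SD of 20 mice. Tlr1 was the most abundant of the 10 at 21.8 ± 2.57, followed by Tlr3 at 7.45 ± 1.26 and Tlr2 at 4.70 ± 1.38. Tlr1 was above Tlr3, and Tlr3 above Tlr2, in all 20 mice. The middle of the order held Nod1 at 2.72 ± 0.353, Tlr4 at 2.20 ± 0.472, Tlr5 at 1.43 ± 0.291 and Nod2 at 1.19 ± 0.309. These neighbours overlapped: Nod1 was above Tlr4 in 17 of 20 mice, Tlr4 above Tlr5 in 17 and Tlr5 above Nod2 in 16. The least abundant were Tlr9 at 0.590 ± 0.552, Tlr7 at 0.268 ± 0.125 and Tlr13 at 0.238 ± 0.0808, all 3 of them endosomal. Tlr7 was above Tlr13 in only 11 of 20 mice, and their order by mean was the other way round on 2% and 5% RPS. Tlr1 stood at the 90.0th percentile of level among the genes tested and Tlr13 at the 11.5th.

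**Figure D1:**
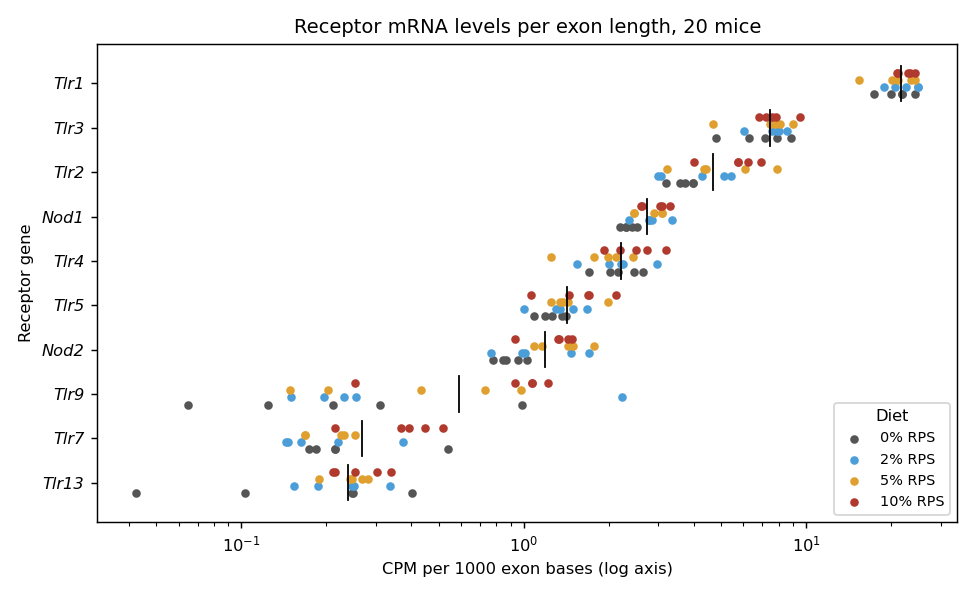
Level of each receptor mRNA as CPM per 1000 exon bases on a log axis, for 20 mice coloured by diet, with a black line at the mean. Tlr1 lay above all the others in every mouse, and Tlr9 spread over a wider range than its neighbours.

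Tlr6, the other partner of TLR2, was at 0.164 ± 0.0641 CPM per 1000 exon bases, so that Tlr1 exceeded it 76.6 to 330 times per exon length in single mice, with a median of 132. Tlr12 was at 1.20 ± 0.260, Tlr11 at 0.171 ± 0.0793 and Tlr8 at 0.0626 ± 0.0366. Reads per mouse were 8 to 42 for Tlr6, 67 to 180 for Tlr12, 3 to 42 for Tlr11 and 2 to 21 for Tlr8. The ratio of Tlr1 to Tlr6 in single mice therefore rests on few reads of Tlr6. None of these other 4 TLR genes passed in edgeR or DESeq2 or reached an unadjusted p of 0.05 in any comparison of RPS with 0% RPS.

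Of the 10 receptors, 0 passed the threshold for 10% against 0% RPS in edgeR's quasi-likelihood test (Benjamini-Hochberg adjusted p of at most 0.05 over all genes tested and a fold change of at least 1.5), against 1.04% of all genes. The estimates of all 10 were above 0, as were those of 50.9% of all genes, with a median log2 fold change of 0.345 beside 0.00405 for all genes. They come from the same mice and several receptors varied together among mice, so these signs are not separate pieces of evidence. At an unadjusted p under 0.05 there were 3 receptors, Tlr2, Nod1 and Nod2, all higher with 10% RPS, where 9.74% of all genes were higher and 9.75% lower by that measure. DESeq2's Wald test called 1 of the 10, Tlr2, against 2.46% of all genes with an adjusted p in DESeq2. In 2 of the 10, Tlr2 and Nod1, all 5 mice on 10% RPS lay above all 5 on 0% RPS, as in 1.68% of all genes.

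**Figure D2:**
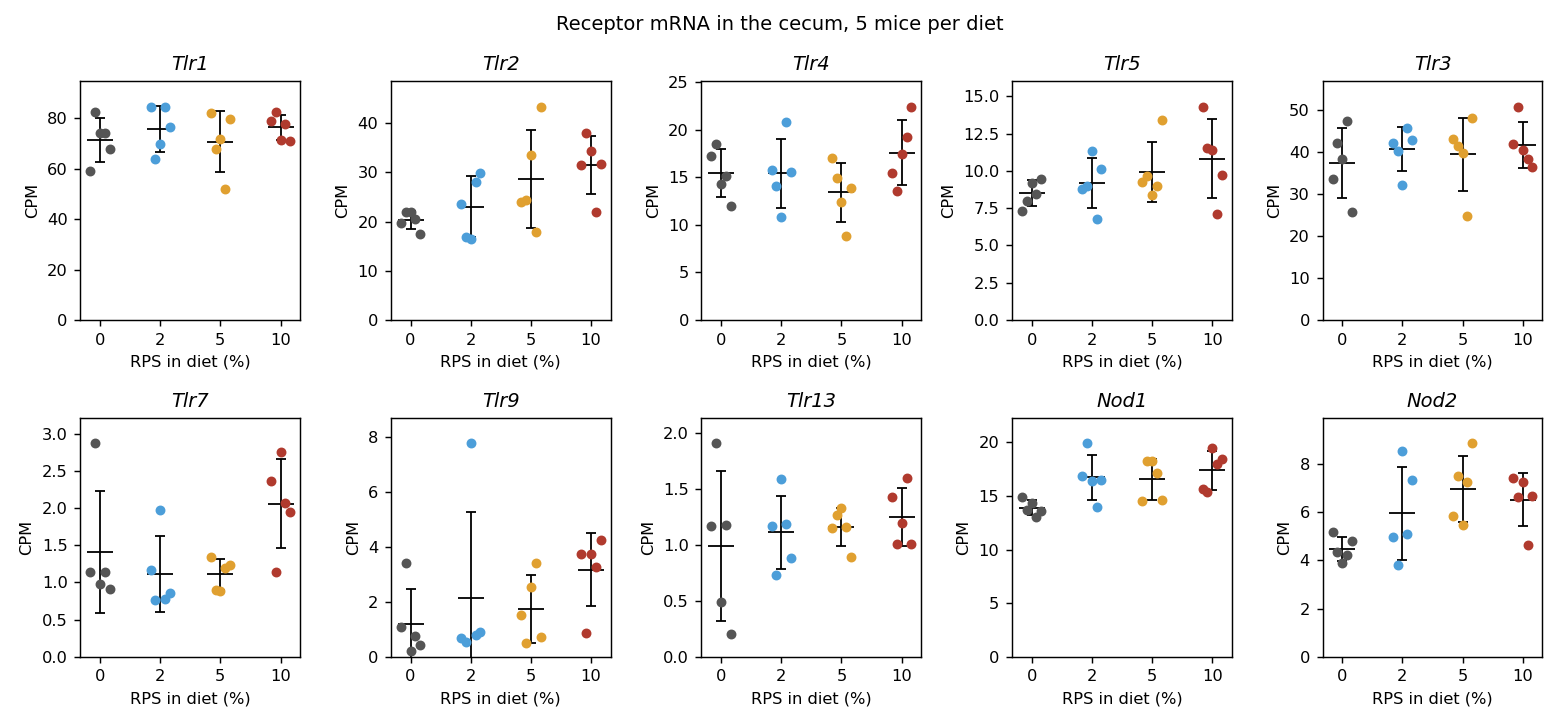
CPM of the 10 receptor mRNAs in each of 20 mice (points) by percentage of RPS, with the mean and SD of 5 mice (black, bars cut at 0). Tlr2 and Nod1 on 10% RPS do not overlap with 0% RPS, and Tlr9 spreads over all diets with 1 mouse at 7.76.

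Tlr2 lies on chromosome 3 (GRCm39 chr3:83743576-83749074, minus strand) and no other annotated gene overlaps it. Its promoter is shown because Tlr2 had the larger fold change of the 2 receptors whose diets did not overlap at 10% RPS, and because it is among the 2 receptor promoters that matched the binding motif of NF-kappaB. The 250 bases before its start (chr3:83749075-83749324) are printed in the direction of transcription, with motif matches in capitals.
Tlr2: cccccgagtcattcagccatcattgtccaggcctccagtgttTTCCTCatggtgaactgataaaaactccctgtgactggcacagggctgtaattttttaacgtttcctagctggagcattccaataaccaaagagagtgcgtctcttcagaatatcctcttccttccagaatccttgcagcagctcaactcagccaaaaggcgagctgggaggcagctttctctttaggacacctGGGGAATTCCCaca
The last capitals are 2 overlapping matches to the kappaB motif, which begin 14 and 13 bases before the start, and the first are the Ets core GAGGAA on the opposite strand. On either strand, 8.54% of 15336 promoter windows of this length held a kappaB match and 23.5% held GAGGAA. Among the receptors only the windows of Tlr2 and Tlr3 held the kappaB motif, and those of Tlr2, Tlr4, Tlr9 and Tlr13 held GAGGAA. The IRF repeat, GAAA and again GAAA after any 2 bases, was in 0 of 10 windows and in 3.19% of all windows. A match is a stretch of letters and not a measured binding site.

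On 0% RPS, Tlr2 was at 19.7, 21.9, 21.9, 20.5 and 17.5 CPM in the 5 mice. On 2% RPS it was at 23.6, 16.9, 16.4, 28.1 and 29.9, and on 5% RPS at 23.9, 24.3, 33.4, 17.8 and 43.3. On 10% RPS it was at 31.5, 38.0, 34.4, 22.0 and 31.6 CPM. The 0% group was the tightest, and the lowest mouse on 10% RPS was just above its highest. The mean was 20.3 ± 1.81 CPM on 0% and 31.5 ± 5.95 on 10% RPS (SD, 5 mice each), and the log2 fold change was 0.64 (SE 0.208, 95% interval 0.204 to 1.07) with an adjusted p of 0.106 in edgeR. With 5% RPS the log2 fold change was 0.49 (adjusted p = 0.304) and with 2% RPS 0.18 (adjusted p = 0.964). When single mice were left out, these ran from 0.287 to 0.616 and from 0.0703 to 0.281. The slope over the percentage of RPS was 0.0638 log2 units per percent (SE 0.019, adjusted p = 0.0888). The call depended on the tool and on 1 mouse, as the adjusted p for 10% against 0% RPS was 0.0455 in DESeq2, 0.0408 in edgeR with only these diets and 0.0496 without the lowest mouse on 10% RPS, and up to 0.227 when other single mice were left out. Of all genes, 0.658% passed with only these diets and 1.95% without that mouse. The study itself, with DESeq2 and more mice per diet than here, lists Tlr2 among the cecal genes higher with 10% RPS. Which of its mice are those used here is not given, so that call is not taken as separate evidence.

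The partner Tlr1 (chr5:65082022-65090941) was at 71.5 ± 8.77 CPM on 0% and 76.3 ± 4.98 on 10% RPS, and 3 of 5 mice on 10% RPS lay above the median of 0% RPS. Its log2 fold change was 0.09, with a 95% interval from -0.139 to 0.328. The ratio of Tlr2 to Tlr1 per exon length ran from 0.159 to 0.205 in mice on 0% RPS and from 0.174 to 0.296 on 10% RPS, with medians of 0.170 and 0.274. This ratio was not tested.

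Tlr4 (chr4:66745783-66849936), the lipopolysaccharide receptor, overlaps 3 annotated long noncoding RNA genes, 2 of them on its own strand, and how reads shared with them were counted is not given in the sources used here. It ranged from 12.0 to 18.5 CPM on 0%, 10.8 to 20.8 on 2%, 8.78 to 17.0 on 5% and 13.5 to 22.4 on 10% RPS. The diets overlapped throughout. Its log2 fold change was 0.19 (95% interval -0.188 to 0.570) with 10% RPS and -0.20 (-0.576 to 0.184) with 5% RPS. When single mice were left out, these ran from 0.0963 to 0.274 and from -0.296 to -0.076. Between 10% and 5% RPS the log2 fold change was 0.39, with an unadjusted p of 0.0464 in edgeR and an adjusted p of 0.9998.

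Tlr5 (chr1:182782311-182805500), which binds flagellin, ranged from 7.32 to 9.47 CPM in mice on 0% RPS and was at 14.3, 11.5, 11.4, 7.11 and 9.72 on 10% RPS. Of the mice on 10% RPS, 4 lay above all of those on 0% RPS and 1 lay below them all. The estimate for 10% RPS was a log2 difference of 0.35 (SE 0.169, 95% interval -0.00314 to 0.699) with an adjusted p of 0.261 in edgeR. It ran from 0.228 to 0.47 when single mice were left out, the lowest without the highest mouse on 10% RPS. The slope was 0.0338 log2 units per percent of RPS (unadjusted p = 0.0354, adjusted p = 0.230).

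The cytosolic NOD1 gene gave the smallest spread of the 10 receptors, with a within-diet SD of 0.149 log2 units. Nod1 lies on chromosome 6 (chr6:54900927-54949647, minus strand) and its promoter window (chr6:54949605-54949854) is printed with that of Nod2 (chr8:89373693-89373942, plus strand). Both had an unadjusted p under 0.05 in edgeR at every dose, and neither held a kappaB match. No adjusted p passed, the lowest being 0.0964 for Nod1 and 0.129 for Nod2, and all doses were compared with the same mice on 0% RPS. The capitals mark the GC box GGGCGG, read on either strand and found in 45.8% of all windows.
Nod1: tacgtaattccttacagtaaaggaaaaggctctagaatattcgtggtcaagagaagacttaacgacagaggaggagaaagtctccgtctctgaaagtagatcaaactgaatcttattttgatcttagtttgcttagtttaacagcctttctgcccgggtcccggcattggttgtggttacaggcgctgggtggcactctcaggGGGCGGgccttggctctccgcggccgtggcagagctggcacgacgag
Nod2: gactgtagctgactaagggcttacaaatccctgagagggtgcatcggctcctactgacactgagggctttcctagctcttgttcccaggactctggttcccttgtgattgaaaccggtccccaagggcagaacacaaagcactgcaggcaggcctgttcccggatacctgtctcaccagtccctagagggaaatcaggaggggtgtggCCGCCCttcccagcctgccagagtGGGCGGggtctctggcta
The GC box began 47 bases before the start of Nod1 and 42 and 18 bases before the start of Nod2. Among the receptors the window of Tlr5 held it as well.

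On 0% RPS, Nod1 was at 14.9, 13.7, 14.3, 13.0 and 13.6 CPM. On 2% RPS it was at 16.9, 19.9, 16.4, 14.0 and 16.5, and on 5% RPS at 14.5, 18.3, 18.3, 17.1 and 14.6. On 10% RPS it was at 15.6, 15.4, 19.5, 18.0 and 18.4 CPM. Each of the 15 mice fed with RPS lay above the median of 0% RPS, and 4, 3 and 5 mice on 2, 5 and 10% RPS lay above the whole 0% group. The log2 fold change was 0.27 (SE 0.102, unadjusted p = 0.0162) with 2% RPS, 0.25 (SE 0.102, unadjusted p = 0.0224) with 5% RPS and 0.32 (SE 0.102, unadjusted p = 0.00505) with 10% RPS in edgeR. The adjusted p-values were 0.818, 0.269 and 0.0964, and the fold change with 10% RPS was 1.25. The slope was 0.0248 log2 units per percent (adjusted p = 0.199), and 10% differed from 5% RPS by 0.07 with an interval from -0.145 to 0.281.

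Nod2, the receptor for muramyl dipeptide (chr8:89373943-89415102), overlaps 2 noncoding RNA genes on the other strand. It was at 5.18, 4.34, 3.90, 4.23 and 4.79 CPM on 0% RPS. On 2% RPS it was at 4.96, 3.83, 8.54, 5.08 and 7.35, on 5% RPS at 5.84, 7.49, 5.46, 7.24 and 8.86, and on 10% RPS at 7.42, 6.63, 7.24, 4.66 and 6.68. All 5 mice on 5% RPS and 4 of 5 on 10% RPS lay above every mouse on 0% RPS. Against 0% RPS the log2 fold change was 0.41 (SE 0.193) with 2%, 0.64 (SE 0.194) with 5% and 0.54 (SE 0.194) with 10% RPS. The adjusted p-values in edgeR were 0.849, 0.129 and 0.136. Nod2 was 0.322 to 0.415 of Nod1 per exon length on 0% RPS and 0.307 to 0.562 of it on 10% RPS.

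With 5% RPS, 0 of 10 receptors passed the threshold in edgeR, against 0.195% of all genes, and 0 passed in DESeq2, against 1.41%. By unadjusted p there were 3, Tlr2, Nod1 and Nod2, all higher, beside 6.74% of all genes. The estimates of 7 of 10 were above 0 (49.5% of all genes), and those below were Tlr1, Tlr4 and Tlr7. In 1 of the 10, Nod2, the diets did not overlap, as in 1.53% of all genes in that direction. With 2% RPS, 0 of 10 receptors and 0% of all genes passed, DESeq2 called 0 receptors (0.027% of all genes), and 2 receptors, Nod1 and Nod2, were higher at an unadjusted p under 0.05, beside 2.58% of all genes. Here 8 of 10 estimates were above 0, as were 51% over all genes. The 3 comparisons share the 5 mice on 0% RPS, so that their agreement in direction is no separate evidence. Between 10% and 5% RPS, 0 of 10 receptors and 0% of all genes passed in edgeR, DESeq2 called 0 receptors and 0% of all genes, and the unadjusted p of Tlr4 and Tlr7 was under 0.05 (1.64% of all genes, higher). Over the dose as a number, 0 of 10 slopes passed an adjusted p of 0.05 in edgeR, against 1.11% of all genes, and DESeq2 called 1, Tlr2, against 4.84% of all genes. All 10 slopes were above 0 (50.5% of all genes), 5 of them with an unadjusted p under 0.05, namely Tlr2, Tlr5, Tlr7, Nod1 and Nod2, beside 9.37% of all genes. For any difference among the 4 diets 0 of 10 passed in edgeR, against 0.0912% of all genes, and 0 in DESeq2, against 2.95%, with 4 at an unadjusted p under 0.05 (Tlr2, Tlr7, Nod1 and Nod2), beside 11.1% of all genes.

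**Figure D3:**
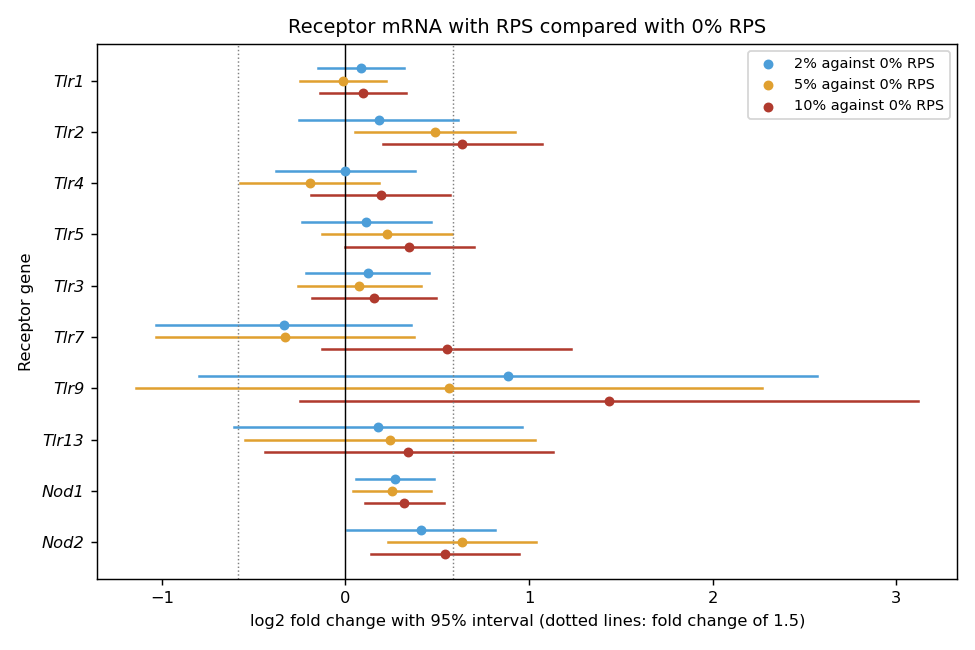
Log2 fold change of each receptor mRNA with 2, 5 and 10% RPS against 0% RPS (points) with 95% intervals from edgeR (lines). Dotted lines mark a fold change of 1.5, and the intervals of Tlr9 are the widest, from -0.249 to 3.12 at 10% RPS.

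Tlr9, the receptor for unmethylated CpG DNA, had the largest fold change of the 10 receptors for 10% against 0% RPS and the largest within-diet spread, an SD of 1.24 on the log2 scale. It lies on chromosome 9 (chr9:106099797-106104082, plus strand), and the 250 bases before its start (chr9:106099547-106099796) are shown because they held 0 CG pairs, where those of Nod1 held 13, and a GAGGAA match, in capitals, 112 bases before the start.
Tlr9: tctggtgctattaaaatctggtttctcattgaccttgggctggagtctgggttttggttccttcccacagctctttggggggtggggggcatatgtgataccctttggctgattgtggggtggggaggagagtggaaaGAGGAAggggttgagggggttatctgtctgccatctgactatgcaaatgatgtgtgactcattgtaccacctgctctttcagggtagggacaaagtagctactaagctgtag
On 0% RPS, Tlr9 was at 1.07, 3.42, 0.225, 0.739 and 0.430 CPM, from 6 to 86 reads. On 10% RPS it was at 3.73, 0.878, 3.73, 3.25 and 4.24 CPM, from 34 to 118 reads. The second mouse on 0% RPS stood with the high mice on 10% RPS, and the second mouse on 10% RPS stood with the low mice on 0%. On 2% RPS, Tlr9 was at 0.681, 0.522, 7.76, 0.804 and 0.884 CPM, so that the third mouse held the highest level of all 20, and on 5% RPS it was at 1.51, 0.518, 2.54, 3.40 and 0.707. The log2 fold change with 10% RPS was 1.44 (SE 0.803, 95% interval -0.249 to 3.12, adjusted p = 0.333 in edgeR), and the diets overlapped. It ran from 1.17 to 2.34 when single mice were left out, the highest without the second mouse on 0% RPS, and the lowest adjusted p was 0.114. The within-diet SD was 1.24 log2 units, at the 98.5th percentile of the genes tested.

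The level of Tlr9 in each mouse went with that of B cell markers. All 10 of the markers, which include Cd79a, Ms4a1, Pax5 and Cr2, were detected in all 20 mice, and 0 of them was at 0 in any mouse. Their sum was 39.2, 259, 7.92, 24.5 and 7.26 CPM in the mice on 0% RPS. On 10% RPS it was 286, 19.3, 363, 293 and 348 CPM, so the second mouse of each diet stood apart here as for Tlr9. The third mouse on 2% RPS had the highest sum, 382 CPM, where the other 4 had 4.38 to 51.1, and the mice on 5% RPS had 10.4 to 167. With diet means removed, Tlr9 and the mean log2 CPM of the markers had r = 0.946 and rho = 0.890 over 20 mice (permutation p = 1e-05, the smallest that 100000 permutations can give, BH adjusted 0.000233 over 70 relations), and r = 0.947 without the 2 mice farthest from the median. The B cell markers differed between 10% and 0% RPS by 2.76 on the mean log2 scale, with 0 of 10 markers past the threshold and an exact permutation p of 0.0794 for the list. With this marker score as a covariate, the log2 fold change of Tlr9 for 10% against 0% RPS was 0.125. Whether B cell number accounts for the level of Tlr9 was not tested.

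**Figure D4:**
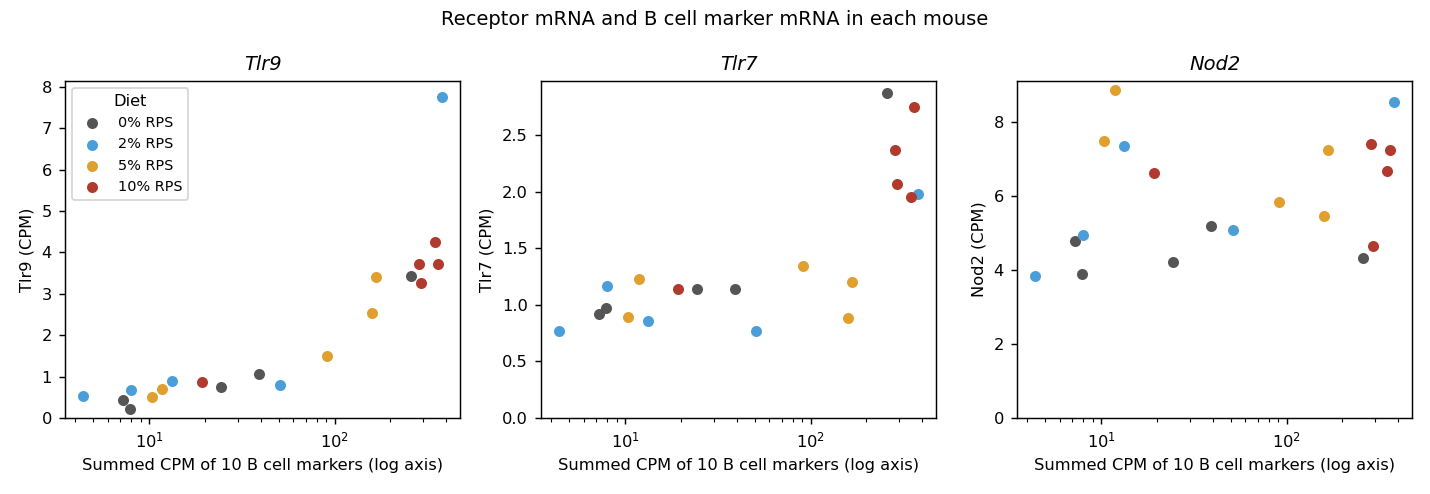
CPM of Tlr9, Tlr7 and Nod2 against the summed CPM of 10 B cell markers (log axis) in each of 20 mice, coloured by diet. Tlr9 followed the B cell markers on every diet, the highest levels of Tlr7 were in mice with sums of 259 CPM or more, and Nod2 (r = 0.17) was scattered.

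Tlr7 (chrX:166086758-166113605), the receptor for single-stranded RNA, was at 1.14, 2.87, 0.975, 1.14 and 0.918 CPM on 0% RPS and at 2.37, 1.14, 2.75, 2.07 and 1.95 on 10% RPS. The mice that stood apart were the same as for Tlr9, the second on each diet. It ranged from 0.765 to 1.98 CPM on 2% and from 0.888 to 1.34 on 5% RPS. The log2 fold change was 0.55 (SE 0.327, adjusted p = 0.360) with 10% RPS and -0.33 (SE 0.335, adjusted p = 0.757) with 5% RPS in edgeR. Between 10% and 5% RPS it was 0.88 (95% interval 0.186 to 1.57, unadjusted p = 0.0154, adjusted p = 0.9998), and 4 of 5 mice on 10% RPS lay above all on 5% RPS. With the B cell score as a covariate the value for 10% against 0% RPS was 0.0698, and without the second mouse on 0% RPS it was 0.977.

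Tlr13 (chrX:105186810-105204533), which binds bacterial ribosomal RNA, was counted with 7 to 53 reads per mouse. It ranged from 0.201 to 1.91 CPM on 0% RPS and from 1.01 to 1.60 on 10% RPS. With 10% RPS the log2 difference was 0.34 (95% interval -0.440 to 1.13), and with the B cell score as a covariate it was -0.029. It ran from 0.0862 to 0.721 when single mice were left out, both of them on 0% RPS. Tlr3 (chr8:45848702-45864117), the receptor for double-stranded RNA, overlaps a noncoding RNA gene on the other strand. It ranged from 25.7 to 47.5 CPM on 0% and from 36.6 to 50.9 on 10% RPS. The log2 fold change was 0.16 with a 95% interval from -0.181 to 0.491, which leaves out a fold change of 1.5. When single mice were left out, the estimate ran from 0.059 to 0.26.

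The receptors were compared in pairs by how they varied among mice, with diet means removed. Of 45 pairs, 8 had a correlation with a BH adjusted p of at most 0.05, and the median r of all pairs was 0.0622. Among the endosomal receptors, Tlr7 and Tlr9 had r = 0.789 (rho = 0.641, permutation p = 9e-05, BH adjusted 0.00405, r = 0.746 without the 2 mice farthest from the median). Tlr13 had r = 0.606 with Tlr9 (rho = 0.633, BH adjusted 0.0336, 0.628 without 2 mice) and r = 0.599 with Tlr7 (rho = 0.478, BH adjusted 0.0365, 0.464 without 2 mice). Tlr3, the remaining endosomal receptor, had r = 0.747 with Tlr1 (rho = 0.809, BH adjusted 0.00675, 0.626 without 2 mice) and 0.672 with Tlr2 (rho = 0.598, BH adjusted 0.0189, 0.604 without 2 mice). With the other surface receptors, Tlr4 and Tlr5, Tlr3 had r = 0.520 (rho = 0.371, BH adjusted 0.091) and 0.0622 (rho = 0.137, BH adjusted 0.869). Tlr1 and Tlr2 had r = 0.602 (rho = 0.523, BH adjusted 0.0336, 0.513 without 2 mice). Tlr5 and Nod2 had r = 0.643 (rho = 0.583, BH adjusted 0.0264, 0.586 without 2 mice). Tlr1 and Nod1 had r = -0.628 (rho = -0.701, BH adjusted 0.0264, -0.719 without 2 mice), and r = -0.328 with the diet means kept. Nod1 and Nod2 had r = -0.246 (rho = -0.131, BH adjusted 0.549).

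Of 70 relations between receptors and 7 marker lists, 14 had a BH adjusted p of at most 0.05, and 9 of these were those of Tlr7 and Tlr9 with lists of immune cells and epithelium. Tlr9 had r = 0.893 with T cell, 0.818 with dendritic cell and 0.731 with macrophage markers (BH adjusted 0.000233, 0.000233 and 0.003). Tlr7 had r = 0.843 with T cell markers (BH adjusted 0.00035), 0.791 with dendritic cell markers and 0.732 with B cell markers. Tlr13 had r = 0.640 with dendritic cell and 0.637 with B cell markers. A relation with a marker list does not name the cell that holds the receptor. Nod2 had r = 0.567 with macrophage markers (rho = 0.540, BH adjusted 0.0474, r = 0.461 without 2 mice). The macrophage markers were 0.319 higher on the mean log2 scale with 10% RPS (exact permutation p = 0.0476, BH adjusted 0.145 over 13 lists), with summed levels of 173 to 248 CPM on 0% and 227 to 278 on 10% RPS. Their part in the level of Nod2 was not tested. Nod1 had r = -0.563 with epithelial markers (BH adjusted 0.0474), a relation that rested on 2 mice, with r = -0.296 without them. Tlr4 had r = -0.704 with smooth muscle markers (rho = -0.719, BH adjusted 0.00481, r = -0.606 without 2 mice). The smooth muscle markers were 0.880 higher with 10% RPS (exact permutation p = 0.0238, BH adjusted 0.145), with sums of 2440 to 5670 CPM on 0%, 3240 to 5660 on 2%, 4160 to 9680 on 5% and 3990 to 6700 on 10% RPS. Their mean log2 level was 7.55, 7.98, 8.58 and 8.43 in that order, so it was highest on 5% RPS, where the mean of Tlr4 was lowest (13.4 CPM). The diets did not all pair this way, as Tlr4 had its highest mean, 17.6 CPM, on 10% RPS and 15.4 CPM on 0% RPS. With the diet means kept, r of Tlr4 with the smooth muscle markers was -0.49. Of the 7 smooth muscle markers, 2 passed the threshold as higher with 10% RPS and 1 with 5% RPS in edgeR. Their part in the level of Tlr4 was not tested. Tlr2 had no relation past BH adjustment with any of the 7 lists, the nearest being r = 0.383 with fibroblast markers (BH adjusted 0.290).

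**Figure D5:**
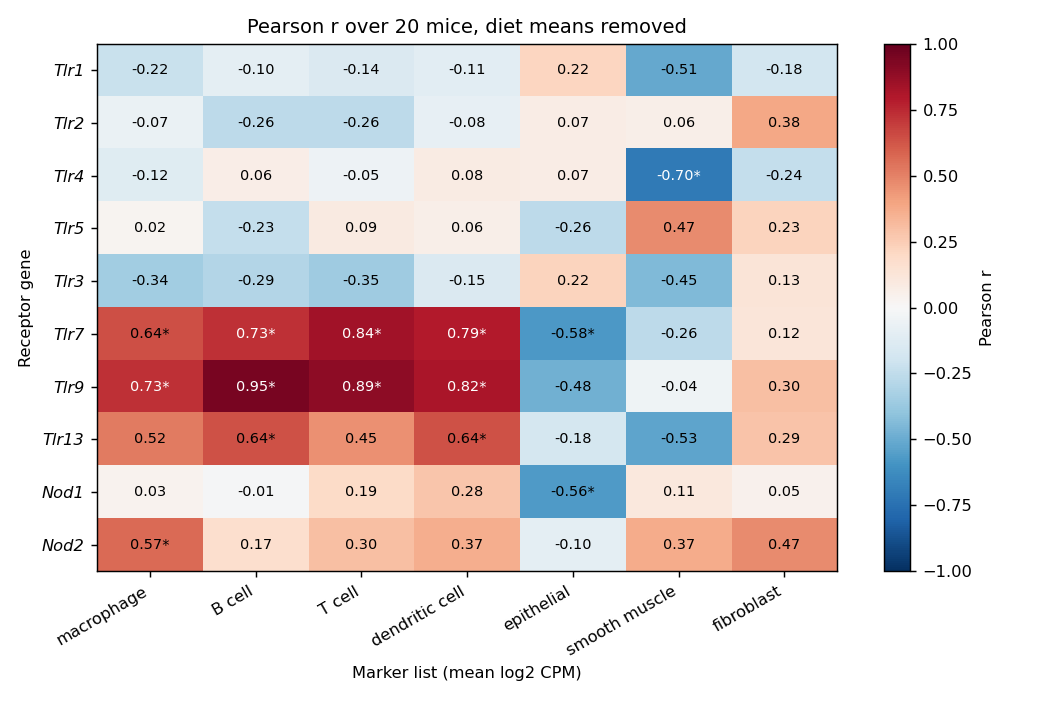
Pearson r over 20 mice, after removing diet means, between each receptor (rows) and the mean log2 CPM of 7 marker lists (columns), with a star for a BH adjusted p of at most 0.05 over 70 relations. Tlr7, Tlr9 and Tlr13 are high in the immune cell columns, and Tlr1, Tlr2, Tlr4, Tlr5, Tlr3 and Nod1 are not.

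The genes most like each receptor over the 20 mice, by r of log2 CPM with diet means removed, were Cd72 for Tlr9 (r = 0.983), Gcc2 for Tlr3 (0.943), Stac2 for Tlr7 (0.913), Ttll9 for Tlr5 (0.893), Serp1 for Tlr4 (0.892) and Lrp12 for Tlr2 (0.883). Those of Tlr13, Tlr1, Nod2 and Nod1 were Igkv1-135 (0.870), Exo5 (0.852), Muc4 (0.806) and Kit (0.797). Clec2g (0.977) and A630001G21Rik (0.976) came next for Tlr9, Cd2ap (0.936) and Relch (0.931) for Tlr3, and Slc16a1 (0.865) and Mapk14 (0.833) for Tlr2. These are the highest values out of all genes tested and carry no p.

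Around the receptors, 118 genes of the pathway were listed and 104 were tested. Of these, 5 passed the threshold for 10% against 0% RPS in edgeR, 4.81% of those tested beside 1.04% of all genes. Those higher were Slc46a3, Rel, Saa1 and Nos2, and the lower was Ptgs2. The lists were chosen with earlier results of these data known, so a share above that of all genes is no test of the pathway. By unadjusted p there were 30 higher and 8 lower of the 104, where 9.74% of all genes were higher and 9.75% lower, and the same shares apply to the counts of each list below. With 5% RPS 1 passed in edgeR, Saa1 (0.962%, beside 0.195% of all genes), and 4 passed in DESeq2, Irf7, Nos2, Ptgs2 and Saa1, beside 1.41% of all genes in that test. With 2% RPS 0 passed in edgeR and 0 in DESeq2, with 3 higher and 3 lower of 104 at an unadjusted p under 0.05, near the shares of all genes (2.58% higher and 3.19% lower). The count of 5 was not stable, running from 0 to 11 when single mice were left out, and of 20 such fits Saa1 passed in 14, Nos2 and Rel in 13, Ptgs2 in 9 and Slc46a3 in 6. With the B cell marker score as a covariate, Nos2 and Saa1 still passed, and 0.606% of all genes did. Rel, Slc46a3 and Ptgs2 no longer passed (adjusted p = 0.086, 0.0942 and 0.0829 in edgeR). Their log2 fold changes were 0.63, 0.73 and -1.22, beside 0.73, 0.75 and -1.23 without the covariate. The B cell markers were 2.76 higher with 10% RPS on the mean log2 scale, as given above, and their part in these 3 genes was not tested. With only the 2 diets compared 0 of the 5 passed.

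Among 12 co-receptors and chaperones 0 passed in edgeR or DESeq2 and 4 were higher by unadjusted p with 10% RPS, with a median log2 fold change of 0.04 for the list. Unc93b1, which carries the nucleic acid receptors to endosomes, was at 40.9 ± 11.6 CPM on 0% and 66.8 ± 15.8 on 10% RPS (log2 fold change 0.71, adjusted p = 0.170 in edgeR). Ctss, the gene of a protease that cleaves endosomal TLRs, was at 239 ± 18.7 and 295 ± 29.1 CPM (0.30, adjusted p = 0.161). Cd180 and Ly86, which code for a TLR-like receptor of B cells and its partner, had log2 fold changes of 2.07 and 0.97 (adjusted p = 0.192 and 0.253), and Cd180 ranged from 0.459 to 6.77 CPM on 0% RPS.

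Of 7 tested genes for peptidoglycan recognition and transport of NOD ligands, 1 passed with 10% RPS, and 4 were higher by unadjusted p. Slc46a3, a lysosomal carrier, rose from 5.25 ± 0.961 to 8.84 ± 2.33 CPM (log2 fold change 0.75, SE 0.193, adjusted p = 0.0486 in edgeR). It was at 7.05 ± 1.37 CPM on 2% and 8.02 ± 1.95 on 5% RPS, neither past the threshold. Slc15a3, an endosomal peptide carrier, had a log2 fold change of 0.95 (adjusted p = 0.242), and the peptidoglycan recognition genes Pglyrp2 and Pglyrp1 had 1.10 and 0.32 (adjusted p = 0.244 and 0.255).

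Of 27 adaptors and kinases 0 passed with 10% RPS in edgeR or DESeq2, with 5 higher and 2 lower by unadjusted p. Birc3, a ubiquitin ligase of NOD and TNF signalling, was at 41.8 ± 6.79 CPM on 0% and 58.5 ± 4.46 on 10% RPS, and its log2 fold change of 0.49 had an adjusted p of 0.0468 but lay under the fold change of 1.5. All mice on 10% RPS (52.7 to 64.5 CPM) were above those on 0% (34.8 to 50.4). Ticam1, which codes for TRIF, the adaptor of TLR3 and TLR4, was at 66.5 ± 9.78 and 48.2 ± 5.22 CPM (-0.46, adjusted p = 0.0555). Traf3 and Xiap had log2 fold changes of 0.29 and -0.45 (adjusted p = 0.0948 and 0.161).

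Of 12 transcription factors 1 passed with 10% RPS, with 5 higher and 1 lower by unadjusted p. Rel, the NF-kappaB subunit c-Rel, rose from 12.8 ± 4.36 to 21.2 ± 2.60 CPM (log2 fold change 0.73, SE 0.175, adjusted p = 0.0376 in edgeR). Its levels on 2% and 5% RPS were 13.9 ± 0.810 and 15.6 ± 1.97 CPM. Irf7, Irf5 and Irf8, interferon regulatory factors, had log2 fold changes of 0.79, 1.01 and 0.55 with 10% RPS (adjusted p = 0.123, 0.158 and 0.169 in edgeR), and DESeq2 called Irf7 as well.

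Of 22 inhibitors 0 passed with 10% RPS in edgeR and 2, Tnfaip3 and Dusp1, in DESeq2, and 4 were higher and 4 lower by unadjusted p. Tnfaip3, the gene of the ubiquitin-editing enzyme A20, was at 25.0 ± 7.29 CPM on 0% and 38.6 ± 7.34 on 10% RPS (0.63, adjusted p = 0.0644). Dusp1, a phosphatase of MAP kinases, was at 44.9 ± 12.3 and 23.5 ± 2.75 CPM (-0.93, adjusted p = 0.0969). Zc3h12a, an endonuclease that cuts cytokine mRNAs, and Il1rl1, the receptor for interleukin-33, had log2 fold changes of 0.51 and -1.35 (adjusted p = 0.121 and 0.160).

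Of 31 target genes 20 were tested, and with 10% RPS 2 passed as higher and 1 as lower, with a median log2 fold change of 0.625 for the list. Saa1, an acute-phase protein made by epithelium, rose from 84.1 ± 37.4 to 255 ± 112 CPM (log2 fold change 1.60, adjusted p = 0.0251 in edgeR) and to 259 ± 74.4 with 5% RPS (1.62, adjusted p = 0.0426). Nos2, the inducible nitric oxide synthase, rose from 0.792 ± 0.482 to 4.42 ± 2.73 CPM (2.48, adjusted p = 0.0289). Ptgs2, which codes for cyclooxygenase-2, fell from 17.8 ± 7.02 to 7.58 ± 3.13 CPM (-1.23, adjusted p = 0.0435). Cd80, a costimulatory ligand, had a log2 fold change of 0.62 (adjusted p = 0.143).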

How the data were processed

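RNA of the cecum was sequenced from 20 mice as stranded TruSeq mRNA libraries. The authors mapped and counted reads with the CLC Genomics Workbench against GRCm39 and deposited raw counts per Ensembl gene, with no normalization. The annotation release, the strand setting and the handling of reads that map to several places are not given in the sources used here. Diets were taken from the labels, and mice of a diet are named 1 to 5 in accession order. No batch was given in the labels. The study describes more mice per diet for its RNA sequencing than the 5 per diet used here, and the others were not analysed here.

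Names, positions and exon lengths came from GENCODE M39, which held 19827 of 19887 gene identifiers. Counts were analysed with edgeR 4.0.16 in R 4.3.3. Genes with low counts were filtered (filterByExpr, minimum count 10, minimum total 15), libraries were scaled by TMM, and a robust quasi-likelihood fit of the 4 diets gave each contrast. A linear slope over the percentage of RPS was fitted separately. A gene passed at a BH adjusted p of at most 0.05 over 15348 genes and a fold change of at least 1.5, and slopes and the test of any difference needed the adjusted p alone. CPM used TMM library sizes. Marker lists were compared by two-sided exact permutation over 252 assignments (the smallest p is 0.00794), and correlations across mice used 100000 permutations. In simulated counts for 10% against 0% RPS over 15348 genes, 75 of 100 changes of 2-fold and 97 of 100 of 4-fold were called, with 3 unchanged genes. Changes under 2-fold, where the estimates of all receptors but Tlr9 lay, were not simulated. DESeq2 1.42.0 and the settings in the closing section were the alternatives. Each mouse is taken as a replicate, so p-values measure the spread among mice.

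The receptors, pathway lists and marker lists were chosen with earlier results of these data known. All 10 receptors are named. Of each pathway list, at most 4 genes are named, those with the lowest unadjusted p for 10% against 0% RPS, plus any past the threshold, and for each receptor the genes most correlated with it. Promoter windows were read from the GRCm39 genome at the start of the canonical transcript of each gene, on both strands for motifs.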

Additional observations from a re-analysis of the deposited data

Results flagged for a closer look

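In 5 of 40 groups of 5 mice, a receptor had 1 mouse whose gap to the next, divided by the range of the group, was above Dixon's 95% critical value for 5 values. Chance alone gives about 1 such group in 20. On 0% RPS, mouse 2 had Tlr9 at 3.42 CPM where the next mouse had 1.07, and Tlr7 at 2.87 CPM where the next had 1.14. The same mouse had the highest sum of B cell markers on that diet, 259 CPM. On 2% RPS, mouse 3 had Tlr9 at 7.76 CPM where the next had 0.884, with a sum of B cell markers of 382 CPM. On 5% RPS, mouse 5 had Tlr5 at 13.4 CPM where the next had 9.64. On 10% RPS, mouse 4 had the lowest Nod2, 4.66 CPM, where the next had 6.63, and it also had the lowest Tlr2 of that diet, 22.0 CPM, and the lowest Tlr5, 7.11 CPM. Without that mouse, Tlr2 passed the threshold for 10% against 0% RPS (log2 fold change 0.746, adjusted p = 0.0496 in edgeR).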

How the results depend on the processing

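No paired analysis was possible because the labels give mice of different diets no shared number. The count of receptors past the threshold for 10% against 0% RPS was 0 in edgeR and 1 (Tlr2) with DESeq2's Wald test and with only the 2 diets compared (2.46% and 0.658% of all genes), and 0 to 1 when single mice were left out. For the slope it was 1 (Tlr2) with DESeq2, and 0 to 1 without single mice, as Tlr2 passed without mouse 4 on 10% RPS (adjusted p = 0.0316, with 3.64% of all genes) and Tlr7 without mouse 2 on 0% RPS (adjusted p = 0.0491, with 1.66%). For 5% and 2% against 0% RPS, 10% against 5% RPS and any difference, 0 receptors passed under every alternative run. The 5 pathway genes became 8 with DESeq2, 3 with no filter on low counts (0.701% of all genes), 0 with the fold change tested against 1.5 (0%), 2 with the B cell score as a covariate (Nos2 and Saa1, 0.606%), and 0 to 11 without single mice. With only the 2 diets compared, 1 pathway gene passed, Dusp1, and 0 of the 5 did, with adjusted p-values of 0.0554 to 0.101. With the B cell score as a covariate, values that changed sign were those of Tlr9 for 10% against 5% RPS (-0.141) and its slope (-0.0122), and of Tlr13 for 10% against 0% (-0.029), 10% against 5% (-0.265) and its slope (-0.00797). The log2 fold change of Tlr4 for 2% against 0% RPS, -0.00124, turned to 0.000713 with DESeq2 size factors, 0.00345 with no filter, 0.000897 with a minimum of 10 counts in every mouse, 0.00753 with the B cell score and 0.00526 with only the 2 diets. Without single mice, it ran from -0.134 to 0.103, and other values that changed sign ran from -0.0781 to 0.0738 for Tlr1 (5% against 0%), -0.0299 to 0.202 for Tlr3 (5% against 0%), -0.0369 to 0.160 for Tlr3 (10% against 5%), -0.442 to 0.0958 for Tlr7 (5% against 0%), -0.659 to 0.0916 for Tlr7 (2% against 0%), -0.666 to 1.80 for Tlr9 (2% against 0%), -0.0205 to 0.619 for Tlr13 (5% against 0%), -0.0777 to 0.558 for Tlr13 (2% against 0%) and -0.164 to 0.00636 for Nod2 (10% against 5%). The cause of these shifts was not tested. Tlr9 and Tlr13 have no value under a minimum of 10 counts in every mouse. Their lowest counts in a mouse were 6 and 7 reads.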
